A study of Rattus norvegicus with 9 samples.

Results

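The Dlk1-Dio3 miRNAs are the microRNAs of an imprinted domain on rat chromosome 6. They were taken as every rat probe whose name carries one of 33 miRNA numbers known from the domain, with any letter or arm suffix, and that rule uses no measured value, although it was written with earlier results of these arrays known. The arrays held 35 such probes among 334 miRNA probes, covering 28 of the 33 numbers. The array had no probe for miR-380, miR-410, miR-411, miR-434 or miR-495. The soleus, a postural hindlimb muscle, was taken from male Sprague-Dawley rats aged 6 months in 3 groups of 3 arrays. One group was suspended by the tail for 7 days, so that the hindlimbs bore no weight and the muscle wasted, another was suspended for 2 days, and the controls were not described as suspended. The tail device was fitted under pentobarbital anaesthesia. Each array read small RNA from 5 µg of total RNA of 1 sample, with a single Cy5 dye, on a chip run by a service provider. The labels call the 3 arrays of a group replicates without saying that each came from a separate animal, so a p-value here covers the spread among these arrays, part of which may be technical.

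The domain is imprinted: its miRNAs and long noncoding RNAs are transcribed from the chromosome inherited from the mother, and the protein-coding genes Dlk1, Rtl1 and Dio3 from the one inherited from the father. The miRNAs are cut from long noncoding transcripts that begin at Meg3, also called Gtl2. An upstream group includes the hairpins antisense to Rtl1, whose products, miR-127 and miR-433 among them, can cleave the Rtl1 message. A second group, running from miR-379 to miR-410, is a dense row of hairpins, many of them within the Mirg transcript. In mouse these miRNAs are abundant in the embryo, the placenta and the adult brain, and in skeletal muscle they are known from satellite cells and regenerating fibres, where miR-431 lowers Pax7. In neurons miR-134 restrains Limk1 at dendritic spines, and the MEF2 transcription factors drive the group from miR-379 to miR-410.

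The sequences below are the probes' target sequences as the scanner output gives them, 5′ to 3′, for the members on which the later results turn. Capitals mark the seed, bases 2 to 8, through which a miRNA pairs with its targets.
miR-127: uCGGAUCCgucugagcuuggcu
miR-341: uCGAUCGGucggucggucagu
miR-329: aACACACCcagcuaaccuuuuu
miR-494: uGAAACAUacacgggaaaccu
miR-539: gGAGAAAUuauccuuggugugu
miR-377: aUCACACAaaggcaacuuuugg
miR-409-3p: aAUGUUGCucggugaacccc
All 35 members had different seeds, and only miR-337 shared its seed with other probes on the array, both of them probes for predicted miRNAs.

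The miR-376 targets are shown because miR-376a, miR-376b and miR-376c are close to each other in sequence while their detection differed. miR-376b*, from the other arm of the miR-376b hairpin, is set beside them. With the seed in capitals, these target sequences read as follows.
miR-376a: aUCGUAGAggaaaauccacg
miR-376b: aUCAUAGAggaacauccacu
miR-376c: aACAUAGAggaaauuucacg
miR-376b*: gUGGAUAUuccuucuaugguu
miR-376a and miR-376b came closest of all members to another probe, at 3 base differences, and no member lay within 2 differences of any other probe.

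For 34 of the 35 members a mature rat miRNA of RefSeq (GRCr8) could be matched, and miR-136 was matched through its hairpin gene. The target was identical to the RefSeq mature sequence for 15 members and had the same seed for 30. The seed differed for 4 members, miR-341, miR-377, miR-323 and miR-412. For miR-341 and miR-377, both detected on all arrays, the RefSeq mature forms are shown with their own seeds in capitals.
RefSeq miR-341: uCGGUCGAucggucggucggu
RefSeq miR-377-3p: uGAAUCACacaaaggcaacuuuu
The miR-377 target begins 3 bases, and the miR-341 target 4 bases, downstream of the RefSeq mature start, so both probes were designed against a form other than the one RefSeq lists. By hairpin arm, 14 targets came from the 5p arm and 21 from the 3p arm.

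On GRCr8 all 35 members lie on the plus strand of chromosome 6, in 30 hairpin genes that span 264.8 kb. The upstream group holds 8 members in chr6:134314731-134354569 (miR-493, miR-337, miR-431, miR-433, miR-127, miR-136, miR-341 and miR-370). The group from miR-379 to miR-410 holds 27 members in chr6:134543445-134579537, after a gap of 188.9 kb. The hairpins of miR-431, miR-433, miR-127 and miR-136 lie inside the annotated interval of the coding gene Rtl1 (chr6:134325231-134335780). miR-370 and the hairpins from miR-379 to miR-376b lie within the long noncoding RNA gene LOC102555254 (chr6:134349619-134558975), and those from miR-376a to miR-369 within LOC120103623 (chr6:134559128-134586223). The hairpins of miR-493, miR-337 and miR-341 fell in no other listed gene. Meg3 ends upstream of all of them (chr6:134274056-134306249).

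Each probe was printed as 9 spots per array, and brightness was background-corrected, quantile-normalized and averaged over spots on the log2 scale, so each value below is a normalized log2 brightness. Detection on an array meant that most of the 9 spots were brighter than the 95th percentile of 614 empty spots. A probe was tested when 1 or more groups had it detected on all of their arrays. That limit was 32.0 to 38.4 brightness units on the 7-day arrays, 33.7 to 73.3 on the 2-day arrays and 31.6 to 53.6 on the control arrays. With no read counts, the number of arrays and the height above the empty spots set the precision. Of 6 striated muscle miRNAs, 5 were detected on all arrays, among them miR-206 and the slow-muscle miR-499. Of 5 blood cell miRNAs, miR-451 and miR-223 were detected on all arrays and miR-144 and miR-142-3p on none; their summed brightness was 1683 to 1802 on 7-day arrays, 1658 to 1801 on 2-day arrays and 2020 to 3408 on control arrays. Of 5 nerve and brain miRNAs 1, miR-128a, was detected on all arrays. Both endothelial miRNAs were detected on all arrays, with a summed brightness of 20690.3 to 22069.7 at 7 days, 17840.4 to 19431 at 2 days and 18108 to 19092 in controls. The 4 smooth muscle and fibroblast miRNAs, also detected on all arrays, summed to 13450.5 to 16255 at 7 days, 14301.5 to 18025.5 at 2 days and 16924 to 20042 in controls. The striated muscle miRNAs summed to 159368 to 162749 at 7 days, 155771 to 167603 at 2 days and 163139 to 168192 in controls. The 7-day arrays thus lay apart from the controls in the striated muscle, blood, endothelial and fibroblast sums, and overlapped them in the nerve and brain sum. The striated muscle sums were only just apart, at 162749 and 163139, and the blood sum includes the undetected probes. Of all single tested probes, 23.6% did not overlap the controls at 7 days and 7.87% at 2 days. The 2-day arrays lay apart from the controls in the blood sum only. The part of these cell types in the results below was not tested.

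Adult soleus gave a signal on at least 1 array for most members of the domain, and many of these lay near the limit of detection. Of the 35 members 15 were detected on all 9 arrays, 12 on 1 to 7 arrays and 8 on none. Detection on all arrays reached 42.9% of members, against 62.1% of the 203 named rat probes outside the domain. The share tested was 60.0% of members, against 71.9% of those other named probes. Over all 334 miRNA probes, with the predicted ones, 42.8% were detected on all arrays and 53.3% were tested. The upstream group had 3 of 8 members detected on all arrays, miR-337, miR-127 and miR-341. The group from miR-379 to miR-410 had 12 of 27, namely miR-379, miR-299, miR-329, miR-494, miR-381, miR-487b, miR-539, miR-382, miR-134, miR-377, miR-541 and miR-409-3p. The 8 members detected on no array were miR-493, miR-136, miR-370, miR-376c, miR-376a, miR-376a*, miR-412 and miR-369-3p. Their values had no order above background and only say that these probes were not brighter than the empty spots.

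The 12 members in between were the ones whose detection differed among arrays. miR-431, miR-300 and miR-485 were detected on 3 of 3 arrays at 7 days, on 1 at 2 days and on 1 control array each. miR-543 was detected on 3 arrays at 7 days, 2 at 2 days and 1 control array, and miR-376b* on 3, 1 and 2 in that order. miR-154 was detected on 3 arrays at 7 days, 2 at 2 days and 2 control arrays. miR-433 and miR-409-5p were each detected on 2 arrays at 7 days, none at 2 days and 1 control array, and miR-376b on 2, 0 and 2. miR-323, miR-382* and miR-369-5p were detected only on 7-day array 1. In all, 27, 24 and 21 members were detected on the 7-day arrays, 17, 15 and 21 on the 2-day arrays and 18, 15 and 24 on the control arrays, or 24.0 ± 3.0, 17.7 ± 3.1 and 19.0 ± 4.6 in that order of groups (SD, n = 3 each). The groups overlapped in this count, and it moved with the number of all miRNA probes detected: 204, 190 and 187 of 334 on the 7-day arrays, 149, 160 and 178 on the 2-day arrays and 172, 157 and 184 on the control arrays. With the 99th percentile of the empty spots as the limit, 17 to 24 members were detected on 7-day arrays, 11 to 21 on 2-day arrays and 14 to 23 on control arrays. The part that the array's own background had in these counts was not tested.

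**Figure D1:**
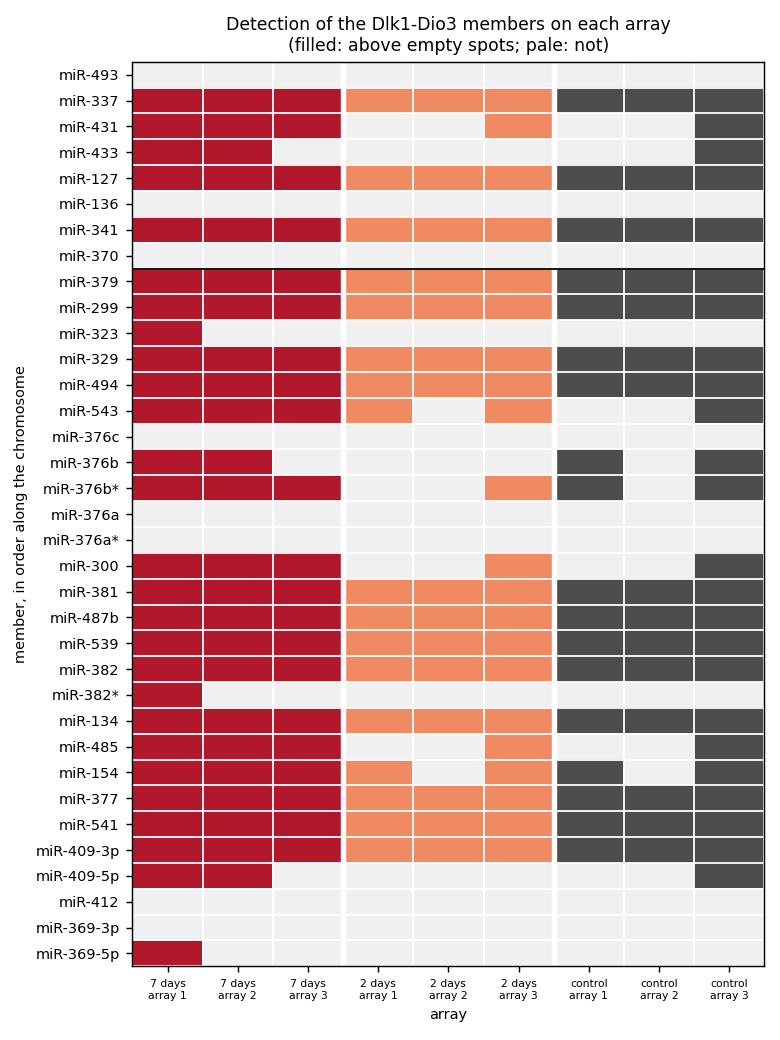
Detection of the 35 members, in order along the chromosome from top to bottom (a line separates the upstream group), on each of the 9 arrays, with 7-day arrays at the left, 2-day arrays in the middle and control arrays at the right. Filled cells are detected and pale cells are not: 15 rows are filled throughout, 8 are empty, and the other 12 are filled on 1 to 7 arrays.

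Some hairpins were read by a probe on each arm, and in none of the pairs were both arms detected on all arrays. miR-409-3p was detected on all 9 arrays and its partner miR-409-5p on 3. The log2 values of miR-409-5p were 5.96, 5.97 and 5.91 at 7 days, 5.92, 5.85 and 5.96 at 2 days and 5.87, 5.89 and 6.02 in controls. Likewise miR-382 was detected throughout and miR-382* on 1 array. miR-382 read 7.64, 7.62 and 7.30 at 7 days, 7.92, 6.79 and 7.72 at 2 days and 7.28, 7.78 and 7.96 in controls. miR-382* read 5.97, 5.94 and 5.89 at 7 days, 5.89, 5.84 and 5.91 at 2 days and 5.94, 5.88 and 5.94 in controls. For both hairpins the weak arm stayed within 0.17 log2 units over the 9 arrays, while miR-382 and miR-409-3p ranged over 1.17 and 1.30. On most arrays the weak arms were not detected, so their narrow range does not say that they were stable. Brightness depends on the probe as well as on the miRNA, so the difference in level between arms was not read.

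In the miR-376 family the 2 arms of miR-376b were detected on some arrays only, miR-376b* on 6 and miR-376b on 4 of 9. Both lay near the limit of detection, and the arms of miR-376a were detected on no array. miR-376b* read 6.44, 6.21 and 6.06 at 7 days, 5.97, 6.02 and 6.20 at 2 days and 6.20, 5.96 and 6.14 in controls. miR-376b read 6.02, 5.96 and 5.98 at 7 days, 5.86, 5.93 and 5.96 at 2 days and 6.07, 5.90 and 6.02 in controls. All groups overlapped for both arms. miR-376a read 5.86, 5.86 and 5.87 at 7 days, 5.86, 5.88 and 5.88 at 2 days and 5.85, 5.86 and 5.86 in controls, with no array above its empty spots. miR-376a* read 5.84, 5.86 and 5.82 at 7 days, 5.84, 5.82 and 5.83 at 2 days and 5.81, 5.81 and 5.83 in controls. The sequences above show that miR-376a and miR-376b differ inside the seed, and the probe of one gave signal on arrays where the probe of the other gave none. Of the miR-369 hairpin, miR-369-5p read 5.94, 5.89 and 5.84 at 7 days, 5.87, 5.86 and 5.88 at 2 days and 5.97, 5.83 and 5.84 in controls. miR-369-3p read 5.89, 5.84 and 5.82 at 7 days, 5.85, 5.85 and 5.88 at 2 days and 5.83, 5.84 and 5.84 in controls. These 2 arms were at the level of the empty spots on nearly every array.

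The upstream members detected on all arrays showed no group that stood clear of both others. miR-127, one of the miRNAs antisense to Rtl1, read 7.95, 8.16 and 8.06 at 7 days, 7.97, 7.66 and 9.10 at 2 days and 8.21, 8.27 and 8.92 in controls. The 7-day arrays lay below every control array, and the 2-day arrays covered the range of both other groups. miR-341, known from rodents, read 10.05, 9.11 and 10.35 at 7 days, 9.83, 9.25 and 10.12 at 2 days and 8.56, 10.29 and 9.22 in controls. It had the widest range of any member, 1.80 log2 units over the 9 arrays, with the control arrays alone covering nearly all of it. miR-337 averaged 6.63 ± 0.20 at 7 days, 6.54 ± 0.36 at 2 days and 6.72 ± 0.50 in controls (SD, n = 3 each).

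Among the 12 members of the group from miR-379 to miR-410 that were detected on all arrays, most group means differed by less than the spread between arrays of a group. miR-379, the first hairpin of the row, averaged 7.91 ± 0.37 at 7 days, 7.66 ± 0.53 at 2 days and 7.81 ± 0.26 in controls (SD, n = 3 each, as for all means here). miR-299 averaged 7.66 ± 0.28, 7.79 ± 0.62 and 7.75 ± 0.35 at 7 days, at 2 days and in controls. miR-381 averaged 6.61 ± 0.15 at 7 days, 6.67 ± 0.42 at 2 days and 6.63 ± 0.19 in controls. These first 3 differed between groups by less than their own spread. miR-487b averaged 7.08 ± 0.043 at 7 days, 7.14 ± 0.35 at 2 days and 7.20 ± 0.32 in controls. miR-382 averaged 7.52 ± 0.19 at 7 days, 7.48 ± 0.60 at 2 days and 7.67 ± 0.36 in controls. The 7-day arrays of both lay close together, inside the range of the other groups. miR-134, the dendritic miRNA of neurons, averaged 6.34 ± 0.093 at 7 days, 6.40 ± 0.24 at 2 days and 6.42 ± 0.080 in controls. miR-541 averaged 6.69 ± 0.12 at 7 days, 6.69 ± 0.50 at 2 days and 6.81 ± 0.20 in controls. Over the 21 tested members the median SD within a group was 0.15 at 7 days, 0.36 at 2 days and 0.26 in controls, against 0.12, 0.25 and 0.17 over all 178 tested probes.

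**Figure D2:**
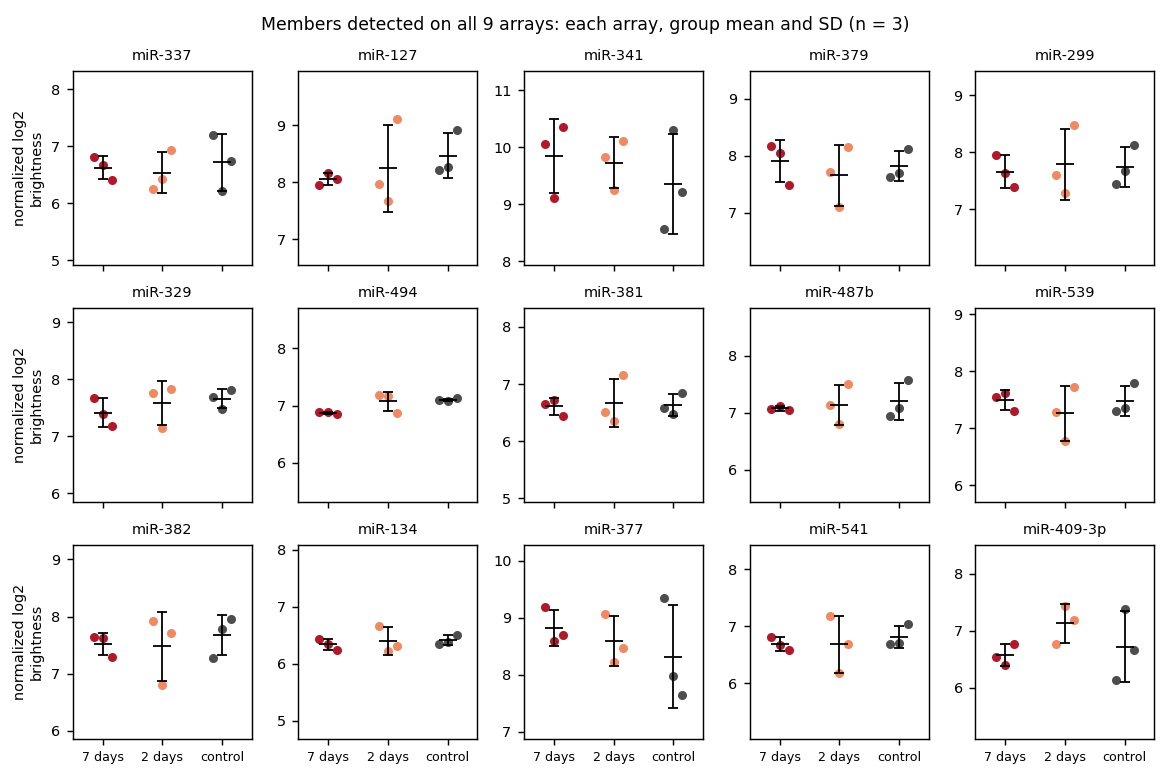
Normalized log2 brightness of the 15 members detected on all 9 arrays, one panel each, with 7-day arrays at the left, 2-day arrays in the middle and control arrays at the right; points are arrays, the bar is the group mean and the whiskers its SD (n = 3). All panels span the same height in log2 units: miR-494 is the tightest and miR-341 and miR-377 the widest.

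Suspension for 7 days against control left no member past the test. The median log2 fold change of the 21 tested members was -0.076, between -0.41 for miR-127 and 0.51 for miR-377, beside a median of -0.030 over all 178 tested probes. Without control array 3 the members' median was 0.055, and without 7-day array 3 it was 0.0046. By limma with Benjamini-Hochberg adjustment over the 178 tested probes, 0 of 21 members had an adjusted p under 0.05, and over all tested probes the share was 0%. At an unadjusted p under 0.05 there was 1 member, miR-494, beside 14% of all tested probes. The arrays of the 2 groups did not overlap for 2 members, miR-494 and miR-127, both lower at 7 days, beside 23.6% of all tested probes without overlap and 12.4% lower without overlap. Of the 21 tested members, 6 (miR-431, miR-543, miR-376b*, miR-300, miR-485 and miR-154) passed the detection filter only through the 7-day arrays, so counts over the 21 are not counts over the whole domain. In whole muscle, fewer cells of a type and less of a miRNA per cell cannot be told apart.

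miR-494, reported in mouse muscle to lower the mitochondrial regulators Tfam and Foxj3, read 6.88, 6.88 and 6.85 at 7 days, 7.18, 7.16 and 6.88 at 2 days and 7.10, 7.09 and 7.13 in controls. All 7-day arrays lay below all control arrays, and 1 of the 2-day arrays lay at the 7-day level. The 7-day mean differed from control by -0.23 ± 0.095 log2 units (SE, 95% interval -0.45 to -0.015), a 0.850-fold level, with a limma adjusted p of 0.320. With the median of the spots in place of their mean the difference was -0.21 ± 0.12 (95% interval -0.49 to 0.064, limma adjusted p = 0.607). That interval took in zero, and the arrays of the 2 groups still did not overlap. miR-329 read 7.67, 7.39 and 7.17 at 7 days, 7.76, 7.15 and 7.83 at 2 days and 7.68, 7.48 and 7.82 in controls. The groups overlapped, and the 7-day difference from control was -0.24 ± 0.21 (adjusted p = 0.826 by limma). Leaving out 7-day array 1 gave -0.37 and leaving out 7-day array 3 gave -0.12, while unnormalized values gave 0.041. miR-127 differed by -0.41 ± 0.36 between 7 days and control (95% interval -1.25 to 0.43, limma adjusted p = 0.826). Without control array 3 the miR-127 difference was -0.18, and without normalization -0.072. For miR-377, known from kidney cells as a miRNA that raises fibronectin, the difference was 0.51 ± 0.44 (limma adjusted p = 0.826), and its spots are described on their own below.

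Suspension for 2 days against control gave a narrower range of differences and again no member past the test. The 21 fold changes lay between -0.22 for miR-127 and 0.41 for miR-409-3p, with a median of -0.050, beside a median of -0.050 over all 178 tested probes. The members' median was 0.070 without 2-day array 2 and 0.0026 without control array 3. By limma 0 of 21 members had an adjusted p under 0.05, beside 0.562% of all tested probes, which was the single probe miR-333, outside the domain. At an unadjusted p under 0.05 there were 0 members, beside 6.74% of all tested probes. No member had 2-day arrays clear of the control arrays, beside 7.87% of all tested probes.

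miR-409-3p read 6.54, 6.39 and 6.77 at 7 days, 6.76, 7.43 and 7.19 at 2 days and 6.13, 7.37 and 6.65 in controls. Its 2-day arrays lay in or just above the upper part of the control range, and 1 control array was nearly as high as the highest of them. The 2-day difference from control was 0.41 ± 0.31 (limma adjusted p = 0.913). Leaving out control array 1 gave 0.11 and leaving out control array 2 gave 0.73, while 2-day array 2 left out gave 0.25. A smaller correction offset of 16 gave 0.62. miR-539 read 7.56, 7.62 and 7.30 at 7 days, 7.29, 6.77 and 7.73 at 2 days and 7.31, 7.35 and 7.79 in controls. Its 2-day difference from control of -0.22 ± 0.24 (limma adjusted p = 0.974) came with 2-day arrays on both sides of the control mean. For miR-341 the 2-day difference was 0.37 ± 0.49 (limma adjusted p = 0.974), and without control array 1 it was -0.024. These 3 members had the smallest p-values of the domain at 2 days.

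Between 7 and 2 days of suspension the members differed by a median of 0.0035 log2 units, beside 0.022 over all tested probes. By limma 0 of 21 had an adjusted p under 0.05, beside 0% of all tested probes, and 0 had an unadjusted p under 0.05, beside 5.62%. No member's arrays were clear of each other, beside 6.18% of all tested probes. miR-494 differed by -0.21 ± 0.095 between 7 and 2 days (limma adjusted p = 0.932), with 1 of the 2-day arrays as low as the 7-day arrays. miR-409-3p differed by -0.56 ± 0.31 (limma adjusted p = 0.932), where the highest 7-day array was just above the lowest 2-day array. miR-376b* differed by 0.18 ± 0.12 (limma adjusted p = 0.948), with overlap. It was tested only because all 7-day arrays detected it, the group where it was brightest, so the direction of this difference says nothing. Leaving out 7-day array 1 gave 0.073 and leaving out 7-day array 3 gave 0.26. An offset of 16 gave 0.33.

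Which side of zero the members fell on depended on how the arrays were scaled to each other. The counts below include the members that passed the detection filter only through the 7-day arrays, named above. For those members the direction of a 7-day difference says nothing, and the counts are not read as a result about the domain. After quantile normalization 7 members were higher and 14 lower at 7 days than in controls (41.6% of all tested probes were higher). With each array centred on the median or the 75th percentile of the probes detected everywhere, 2 were higher and 19 lower. Without normalization 10 were higher and 11 lower, and after cyclic loess 6 and 15. Of all tested probes 23.6%, 27%, 71.3% and 41.6% were then higher, under median centring, 75th percentile centring, no normalization and cyclic loess. The median over all tested probes moved to -0.25, -0.22 and 0.14 under median centring, 75th percentile centring and no normalization. At 2 days against control 5 were higher and 16 lower after quantile normalization, 11 and 10 after median centring or cyclic loess, 13 and 8 after 75th percentile centring, and 19 and 2 without normalization. Of all tested probes 39.9%, 38.8%, 46.1%, 44.9% and 70.2% were then higher, under quantile normalization, median centring, cyclic loess, 75th percentile centring and no normalization. Between 7 and 2 days 11 were higher and 10 lower after quantile normalization, 3 and 18 after either centring, and 5 and 16 after cyclic loess or with none. The share of all tested probes that were higher was 56.2%, 24.7% under either centring, 46.6% and 66.9% in that order. All tested probes moved with the scaling too, but not always to the same side as the members. Without normalization the members' median between 7 and 2 days was -0.12 and that of all tested probes 0.12. No member passed the test under any of these scalings in any comparison. miR-494 was lower at 7 days than in controls under each of them, by between -0.55 and -0.16 log2 units.

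The intervals are on the scale of values with the offset of 50 added, which draws the differences of dim probes toward zero, so they do not bound the change in the miRNA itself. On that scale the 95% interval lay within 1 log2 unit on either side of zero for 18 of the 21 members at 7 days and for 17 at 2 days against control. At 7 days miR-127, miR-341 and miR-377 were the exceptions. The median SE was 0.21 for members and 0.17 for all tested probes. The group explained a median of 7.71% of the variance of a member over the 9 arrays, against 18.9% for all tested probes. miR-494 stood at 61.9% and miR-409-3p at 31.7%. With 3 arrays in each of 3 groups, such a share is well above zero even without any group effect. These shares are therefore not read as effects of suspension. The median SE over the 9 spots of 1 array was 0.040 for members and 0.041 for all tested probes. That SE was taken on log2 brightness as deposited, without the offset, so it is not on the scale of the other values here. Within groups, arrays had a median SD of 0.28 for members and 0.21 for all.

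**Figure D3:**
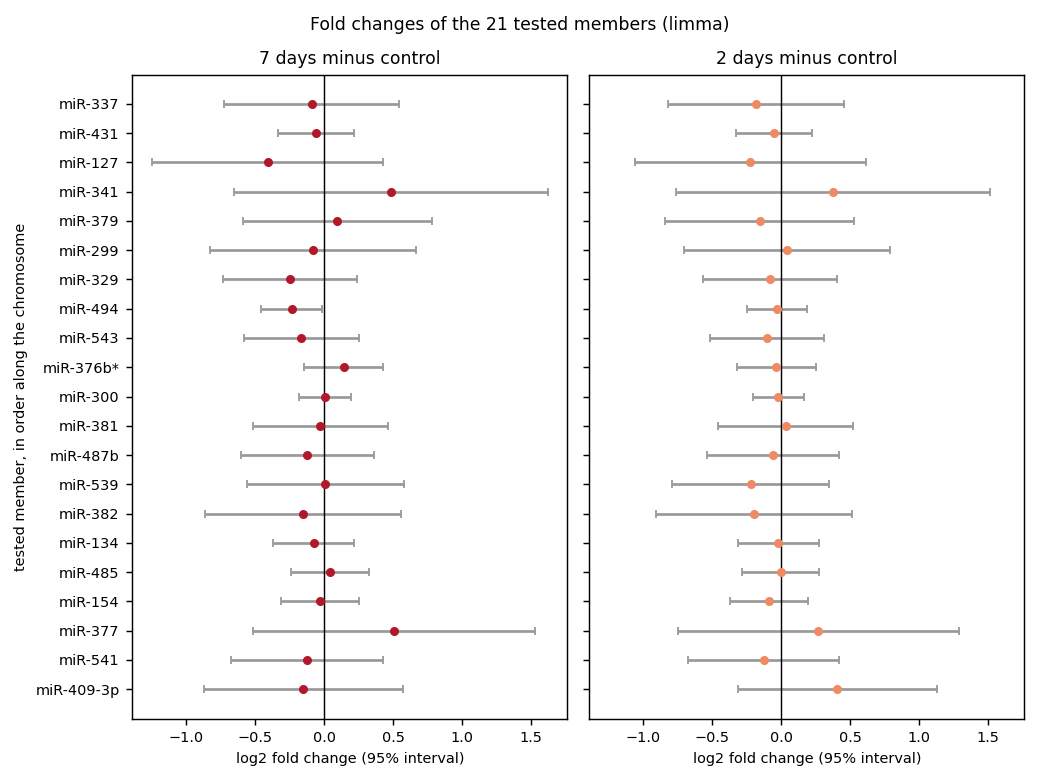
Log2 fold changes of the 21 tested members, in order along the chromosome from top to bottom, for 7 days minus control at the left and 2 days minus control at the right, on one shared axis. Points are limma estimates from the mean of the spots and bars their 95% intervals. The one interval that leaves out zero is that of miR-494 at 7 days, and with the median of the spots it took in zero.

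miR-377 was the member whose result turned on single spots. On control array 1 its 9 spots ran between 134.1 and 16036 brightness units with a median of 186, and 3 of them were more than 4-fold above that median. On control arrays 2 and 3 its spots ran between 124 and 243 and between 104 and 162. On the 7-day arrays the spot medians were 589.1, 369.03 and 553.8, on the 2-day arrays 360.1, 350.5 and 464.7, and on the control arrays 186.2, 223.8 and 132.2. Every suspended array was thus brighter than every control array by its spot median, before any normalization. By the same measure 26.4% of all tested probes were higher on every 7-day array than on every control array, and 5.06% on every 2-day array. Averaged over spots, the normalized log2 values were 9.19, 8.60 and 8.70 at 7 days, 9.07, 8.23 and 8.48 at 2 days and 9.35, 7.97 and 7.64 in controls, where control array 1 was the highest of all. Of 2835 member spots only 4 lay more than 4-fold from the median of their probe on their array, 3 of them these and the other a dim miR-127 spot of 37.9 units on 2-day array 2.

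With the median of the spots in place of their mean, the miR-377 values were 9.26, 8.61 and 8.74 at 7 days, 9.12, 8.16 and 8.64 at 2 days and 7.69, 8.10 and 7.65 in controls. Neither suspended group then overlapped the controls. With this summary 11.2% of all tested probes were higher without overlap at 7 days and 3.37% at 2 days. The 7-day difference was 1.05 ± 0.27 log2 units (SE; 95% interval 0.43 to 1.67), a 2.07-fold level, with a limma adjusted p of 0.138. The 2-day difference was 0.82 ± 0.27 (95% interval 0.20 to 1.44), a 1.77-fold level, with a limma adjusted p of 0.354. Neither passed the threshold of 0.05. Leaving out only the spots more than 4-fold from their median, a choice made after these spots were seen, gave 1.02 (adjusted p = 0.109 by limma) and 0.79 (adjusted p = 0.229). The authors' deposited table, whose scale and summary over spots are not stated, listed miR-377 at 490, 321 and 365 at 7 days, 461, 254 and 351 at 2 days and 135, 202 and 141 in controls. On the log2 of that table the differences from control were 1.30 at 7 days (limma adjusted p = 0.111) and 1.14 at 2 days (limma adjusted p = 0.136). Over all alternatives tried the adjusted p of miR-377 was never below 0.0591 at 7 days or 0.108 at 2 days. What made the 3 bright spots was not tested.

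**Figure D4:**
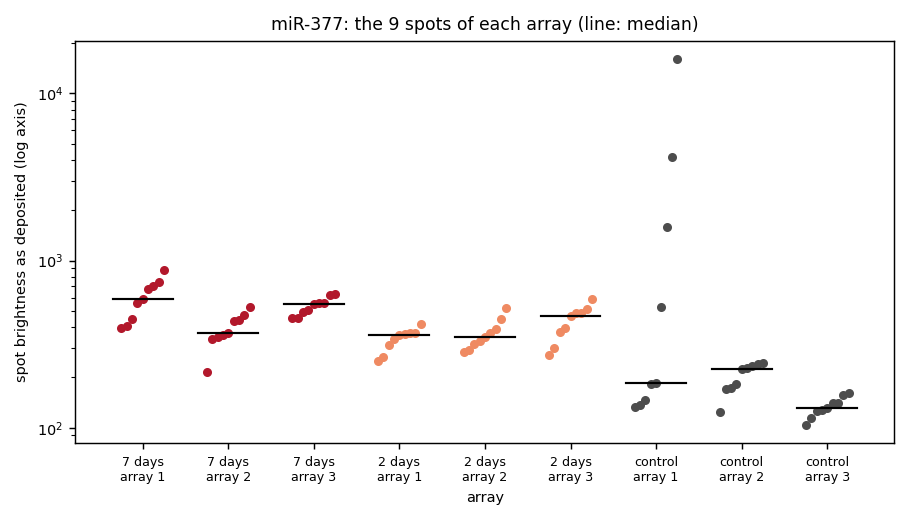
Brightness of the 9 spots of the miR-377 probe on each array as deposited, on a log axis, sorted within each array, with 7-day arrays at the left, 2-day arrays in the middle and control arrays at the right; the line is the median. Control array 1 holds 3 spots far above the rest, while its median of 186 lies below the medians of all 6 suspended arrays (351 to 589).

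Across the 9 arrays the 21 tested members had a higher median correlation with each other than tested probes did in general. The median Pearson correlation over the 210 pairs of the 21 tested members was 0.40, and 41.4% of pairs were above 0.5. Over all 15753 pairs of tested probes the median was 0.0099 with 15.4% of pairs above 0.5, and over the 3486 pairs of other probes within the members' range of mean level it was -0.0055. A member paired with a tested probe outside the domain gave a median of 0.018. The points of each correlation are the 9 arrays, which share their RNA, hybridization and normalization between probes, so these values are descriptions without a test. Taken as deviations from the group means the median was 0.41 for members and 0.0019 for all pairs, so the likeness was there among arrays of a group. The median for the 15 members detected on all arrays was lower, 0.26, with 36.2% of pairs above 0.5. The rest of the 21 were not detected on every array, so the median of 0.40 rests partly on values at the level of the empty spots. Other probes detected on all arrays were not taken as a set, so the 0.26 has no matched value to be read against.

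The closest pairs were not only neighbours on the chromosome. miR-379 and miR-539 correlated at 0.95, miR-431 and miR-299 at 0.93, miR-134 and miR-541 at 0.93, miR-299 and miR-381 at 0.93, and miR-127 and miR-487b at 0.92. The first pair lies 20.2 kb apart, while miR-431 and miR-299, and miR-127 and miR-487b, lie on either side of the gap, 218.6 and 234.4 kb apart. By distance, the median was 0.66 for the 29 pairs within 5 kb, 0.38 for the 78 pairs between 5 and 20 kb, 0.39 for the 35 pairs between 20 and 50 kb and 0.35 for the 68 pairs across the gap. Within the upstream group it was 0.22 over 6 pairs and within the group from miR-379 to miR-410 it was 0.43. Pairs within 5 kb thus had the highest median, in a set of pairs that share members and are not independent. The medians by distance and by group use all tested members, those not detected on every array included.

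Not every member took part. The median correlation with the other 20 members was 0.68 for miR-431, 0.67 for miR-329, 0.66 for miR-487b, 0.64 for miR-379 and 0.64 for miR-382. miR-431 was detected on 5 of the 9 arrays and spanned 0.35 log2 units, so its correlations, that with miR-299 included, rest partly on values at the level of the empty spots. The same holds for miR-300 and miR-485, detected on 5 arrays each, miR-543 and miR-376b*, on 6 each, and miR-154, on 7. The median correlation with the other members was -0.18 for miR-409-3p, -0.18 for miR-494, -0.16 for miR-377 and 0.080 for miR-341. With the median of the spots miR-377 stood at 0.055, miR-494 at -0.28 and miR-409-3p at -0.22. The lowest pair was miR-154 with miR-409-3p at -0.71.

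A set of 10 of the 15 members detected on all arrays, chosen after their values were seen because they correlated with each other, had a median pair correlation of 0.74 (miR-127, miR-379, miR-299, miR-329, miR-381, miR-487b, miR-539, miR-382, miR-134 and miR-541). The other 5 (miR-337, miR-341, miR-494, miR-377 and miR-409-3p) had a median of -0.25 among themselves and -0.0066 with the 10. The choice fixes these 3 values, which describe the split only. Set against each miRNA's own mean, the median deviation of the 10 was 0.084, -0.029 and -0.19 on the 7-day arrays, -0.043, -0.49 and 0.34 on the 2-day arrays and -0.080, -0.056 and 0.35 on the control arrays. Control array 3 was above the miRNA's own mean for 10 of the 10 and 2-day array 3 and 7-day array 1 for 8 each, while 2-day array 2 and 7-day array 3 were above it for none. The lowest array and 1 of the 2 highest thus belonged to the same group. That the 10 agree on an array follows from their choice, and the share of all tested probes above their own mean is not given here. These counts therefore only describe the chosen set. miR-299 read 7.95, 7.65 and 7.39 at 7 days, 7.60, 7.29 and 8.48 at 2 days and 7.44, 7.67 and 8.13 in controls. miR-379 read 8.18, 8.05 and 7.49 at 7 days, 7.72, 7.10 and 8.16 at 2 days and 7.62, 7.70 and 8.11 in controls, where 7-day array 1 was the highest and 2-day array 3 and control array 3 came next. The empty-spot limit was 73.3 on the low 2-day array 2, 54.1 on the high 2-day array 3 and 31.6 on the high control array 3, and its part in the pattern was not tested. The members' median correlation was 0.57 without normalization (0.38 over all pairs), 0.62 after median centring (0.30), 0.50 after 75th percentile centring (0.16) and 0.33 after cyclic loess (-0.015).

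**Figure D5:**
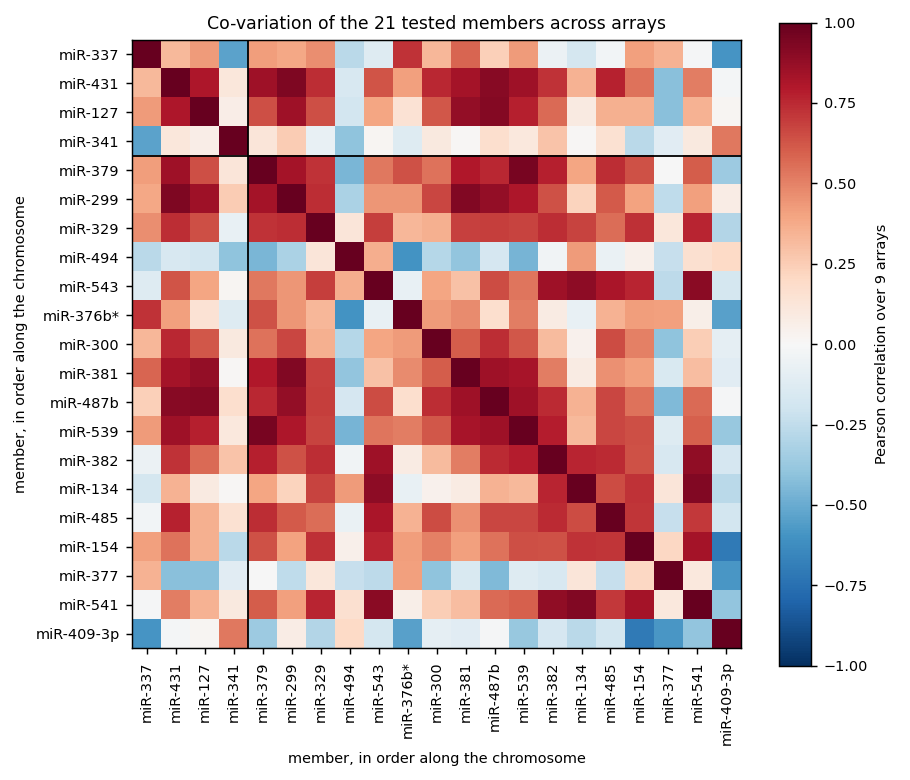
Pearson correlation over the 9 arrays between the 21 tested members, both axes in order along the chromosome with lines at the gap between the upstream group and the group from miR-379 to miR-410. Red is positive and blue negative: most of the square is red (median 0.40), and the rows of miR-341, miR-494, miR-377 and miR-409-3p stand out as pale or blue.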

How the data were processed

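Small RNA of 9 rat soleus samples was hybridised to 1-colour chips, 1 per sample, whose labels state 234 rat and 96 predicted miRNA probes (the files name 238 and 96). The deposited scanner files give, per the file headers, a mean spot brightness (intensity) on a linear scale with no normalization, for 3968 spots per array; its values stand as text with commas inside the numbers, so its unit was entered as other. The authors' value table of 162 miRNAs, also intensity, was deposited without its scale or centring and correlated with the log2 scanner values at 0.944 to 0.990 per array; it was used as an alternative. How that table was filtered is not stated in the labels. The RNA integrity number was 8.4 ± 0.5 over all samples, per the labels.

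Spot intensities were corrected by normexp (offset 50; the files give no local background), quantile-normalized on the log2 scale and averaged over the 9 spots of a probe in R 4.3.3. Of 334 probes, 178 that all arrays of 1 or more groups detected were fitted in limma 3.58.1 with 1 mean per group and moderated variances, and p-values were adjusted over the 178 (threshold 0.05). The fit was tested on simulated data. A log2 difference understates the change of dim probes because of the offset. Every member was accounted for by its detection; the 3 smallest p-values per comparison, miR-127, and arm pairs were given on every array, and members detected on all 9 arrays by group means. The members and lists were chosen with earlier results of these data known. Alternatives covered background, scaling, spot summary, detection filter, test, array weights, the replicate number as a block, the authors' table and each array left out. Replicate numbers come from the sample titles and pair nothing there; deviations of same-numbered arrays correlated at -0.40 to 0.35.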

Additional observations from a re-analysis of the deposited data

How the results depend on the processing

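No member passed the test in any of 26 alternatives of any comparison; the lowest adjusted p (limma) was 0.0591 at 7 days against control, 0.108 at 2 days against control and 0.116 between 7 and 2 days. With the replicate number as a block, miR-494 at 7 days had an adjusted p of 0.396 and no member's call changed. The numbers of all tested probes called moved. At 7 days against control it was 0, against 10 without normalization, 10 with array weights, 5 with only both groups' arrays, 2 in the authors' table and 2 there with a pseudocount of 50, and 0 to 3 with an array left out (3 without 2-day array 1). At 2 days against control it was 1, against 0 with median centring, 75th percentile centring, no normalization or only both groups' arrays, 2 without a detection filter, 2 with an unmoderated test, 4 with array weights, and 0 to 4 with an array left out. Members at an unadjusted p under 0.05 numbered up to 8 at 7 days against control and up to 10 between 7 and 2 days, both with 75th percentile centring. With that centring 73% and 75.3% of all tested probes were lower in these comparisons, in that order. The share of all tested probes at that p is not given here, so the counts are not read as a result about the domain. The members' median fold change at 7 days against control was -0.40 with median centring and -0.37 with 75th percentile centring. Between 7 and 2 days it was -0.39 and -0.40 with those, and -0.15 to 0.12 with an array left out (lowest without 2-day array 2). At 2 days against control it was 0.14 without normalization. With an array left out it was -0.12 to 0.055 at 7 days and -0.13 to 0.070 at 2 days against control. Without normalization the sign turned for miR-329 at 7 days (0.041), miR-539 at 2 days (0.060) and miR-376b* between 7 and 2 days (-0.12); the last was also -0.40 under median and -0.40 under 75th percentile centring. Leaving out an array moved the 2-day differences from control over -0.65 to 0.068 for miR-127 (0.0026 without control array 3, 0.068 without 2-day array 2), -0.45 to 0.026 for miR-539 (highest without 2-day array 2), -0.024 to 0.84 for miR-341 (lowest without control array 1) and -0.069 to 0.79 for miR-377 (lowest without control array 3, highest without control array 1). That of miR-409-3p ranged over 0.11 to 0.73. At 7 days miR-377 ranged over 0.17 to 1.02. The mean number of members detected at 7 days was 19.7 with the 99th percentile limit and 20 when every spot had to pass, and at 2 days 14.3 when every spot had to pass. The members' median correlation was 0.62 with median centring, 0.57 without normalization and 0.32 to 0.51 with an array left out. The causes were not tested.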
